A study of Homo sapiens with 4 samples.

Results

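The genes described here lie in bands p24 to p21 of the short arm of human chromosome 9. They are 47 genes, listed by symbol, of the 25559 gene symbols in the count tables, and every one of the 47 was found there. They were chosen on the measured values themselves, because this arm carried more RNA in RUNX3 KO than in control libraries, so their rise in this comparison is a description and is not evidence of its own. Their starts cover 32.7 Mb of the GRCh37 genome, from DOCK8 at position 214854 to APTX at 32886599.

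RNA-seq had been carried out on HGC27, a human gastric cancer cell line derived from a lymph node metastasis, with 2 libraries of unedited control cells and 2 of RUNX3 KO cells. The knockout cells carried a lentiviral vector with Cas9 and a guide against exon 3 of RUNX3, a transcription factor of the Runt family. They had been selected with puromycin and put through single-cell cloning, and the control is labelled wildtype with no mention of a vector. The number of clones, and whether replicates were separate cultures, is not given in the sources used here, so the spread between replicates may be technical, and differences between clones and the loss of RUNX3 cannot be told apart.

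Distal 9p holds well-known cancer genes. CDKN2A encodes the p16INK4a and ARF tumor suppressors, MTAP beside it encodes a methionine salvage enzyme that is often lost together with it, and JAK2 encodes a cytokine receptor kinase that neighbors the checkpoint ligand genes CD274 and PDCD1LG2. Tumors and cultured cells can lose or gain whole stretches of the arm, and a change of copy number is known to move the RNA of many neighboring genes in the same direction by a like ratio. RNA-seq counts do not measure DNA copies, and no DNA measurement was used here.

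Gene counts per library ranged from 11731401 to 12110876. RUNX3 itself had 351 and 308 counts in control and 225 and 185 counts in RUNX3 KO libraries, which amounted to -0.70 on the log2 scale (SE 0.0961, edgeR adjusted p = 1.43e-09), with no overlap between the groups. RUNX3 RNA was therefore lower but present, and a gene count does not show the edit. Of 10 gastric epithelial markers, 7 (EPCAM, KRT19, TFF1, TFF2, MUC5AC, MUC6 and GKN1) had at most 3 counts in every library, and the list summed to 2.79 to 3.05 CPM (counts scaled to the normalized library size) in control and 8.80 to 10.6 CPM in RUNX3 KO. Most of it in RUNX3 KO was KRT8, with 19 and 11 counts in control and 72 and 81 in RUNX3 KO. CDH1 had 15 and 21 against 30 and 32 counts, and KRT18 had 0 and 0 against 2 and 14. Leukocyte markers summed to 0.665 to 1.78 CPM and endothelial markers to 0.0846 to 0.339 CPM, with PECAM1 and CDH5 at 0. The mesenchymal list (VIM, CDH2 and FN1) summed to 4880 and 4900 CPM in control and to 2870 and 2940 CPM in RUNX3 KO, nearly all of it VIM, and FN1 stood at 8.89 CPM in control and 1.09 CPM in RUNX3 KO. CDH2 had at most 3 counts in every library. The part of these differences in the results below was not tested. In bulk RNA, more RNA per cell and a larger share of cells that express a gene cannot be told apart.

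Of the 47 genes, 42 had enough counts to be fitted, and nearly all of them were higher in RUNX3 KO. With the quasi-likelihood test of edgeR, adjusted by Benjamini-Hochberg across the 12967 genes tested and read at a threshold of 0.05, 37 of the 42 were called higher, where 24.5% of all genes tested were called higher. The 2 called lower were ADAMTSL1 and ACO1, where 24.4% of all genes were called lower. SH3GL2, ACER2 and C9orf72 were not called. In 38 of the 42, both RUNX3 KO libraries lay above both control libraries in CPM, which held for 36.3% of all genes. Because this comparison selected the genes, nothing is read from these counts.

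The size of the shift was close to doubling. The median log2 fold change of the 42 genes was 0.86, a ratio of 1.82, against -0.00213 for all genes tested (quartiles -0.23 and 0.17). Taking each RUNX3 KO library against each control library in turn, the median lay between 0.853 and 0.926. In each of the 4 pairings 38 or 39 of the 42 genes were higher. Since this comparison selected the genes, nothing is read from that count. Between replicates of 1 group, the log2 ratios of the 34 members with a mean of at least 100 counts had an SD of 0.131 in control and 0.111 in RUNX3 KO, and no such ratio exceeded 0.338 in size in control or 0.358 in RUNX3 KO.

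The shift did not run evenly through the whole span. The edges at SMARCA2 and IFT74 were chosen after values were seen, so a lower median outside them is partly built in. From SMARCA2, which starts at 1980290, to IFT74, which starts at 26947037, 37 tested members had a median log2 fold change of 0.91 (1.88-fold), with quartiles of 0.80 and 1.02. Of these 37, 34 were called higher and 1, ADAMTSL1, lower, where 24.5% and 24.4% of all genes were. On the side of the chromosome end, KANK1 was the only member tested, at 0.29. On the side of the centromere, the 4 tested members after IFT74 (C9orf72, ACO1, TOPORS and APTX) had a median of 0.06.

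Genes that are not members had a median of a like size within the stretch and small or scattered values outside it. They share the libraries and the region with the members, so they are a description of the stretch and no independent replicate. Between SMARCA2 and IFT74, 13 other genes were tested, with 11 called higher and 0 lower, where 24.5% and 24.4% of all genes were. Their median was 0.86 on the log2 scale (1.81-fold). They ranged from 0.33 (C9orf93, not called) to 2.07 (DMRTA1, with 6 and 7 against 28 and 28 counts, which passed the minimum count of 10 only through RUNX3 KO). RPS6, which encodes a protein of the small ribosomal subunit, had by far the deepest counts among them, with 17989 and 18088 in control and 31988 and 33055 in RUNX3 KO libraries, a log2 fold change of 0.84 (SE 0.0204). PUM3, listed under its older symbol KIAA0020, stood at 1.11 (SE 0.0329), and FOCAD, listed as KIAA1797, at 0.86 (SE 0.0502). Towards the chromosome end, DMRT2 stood at 0.11 and was not called, but the outermost pair of genes was called higher, with CBWD1 at 0.58 (SE 0.0902) and WASH1 at 0.37 (SE 0.144). Both belong to families with near-identical copies on other chromosomes, so their counts are uncertain. CBWD1 lay above ELAVL2 at 0.54 and C9orf82 at 0.49, which lie within the stretch. So did DNAJA1, an HSP70 co-chaperone gene beyond APTX on the other side, at 0.62 (SE 0.0246, called higher), so single genes outside the stretch reached values found inside it on both sides. Past the last member, the highest of the 64 genes on 9p was GNE, a sialic acid synthesis enzyme gene, at 1.51 (SE 0.352).

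Past IFT74 the values of neighboring genes scattered. MOB3B, a gene of the MOB kinase regulator family, had 100 and 85 counts in control and 16 and 20 in RUNX3 KO libraries, a log2 fold change of -2.37 (SE 0.228). LINGO2, which encodes a leucine-rich repeat membrane protein, had 5 and 9 counts in control and 103 and 114 in RUNX3 KO, a log2 fold change of 3.92 (SE 0.272). Neither gene's groups overlapped, and the log2 fold changes had opposite signs. LINGO2 passed the minimum count of 10 only through the RUNX3 KO libraries, where it is high. NDUFB6, a subunit of respiratory complex I, stood at 0.01 (SE 0.0485). The 64 tested genes on the rest of 9p had a median of 0.08, with 22 called higher and 7 lower, where 24.5% and 24.4% of all genes were. The 384 of 9q had a median of 0.10.

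**Figure D1:**
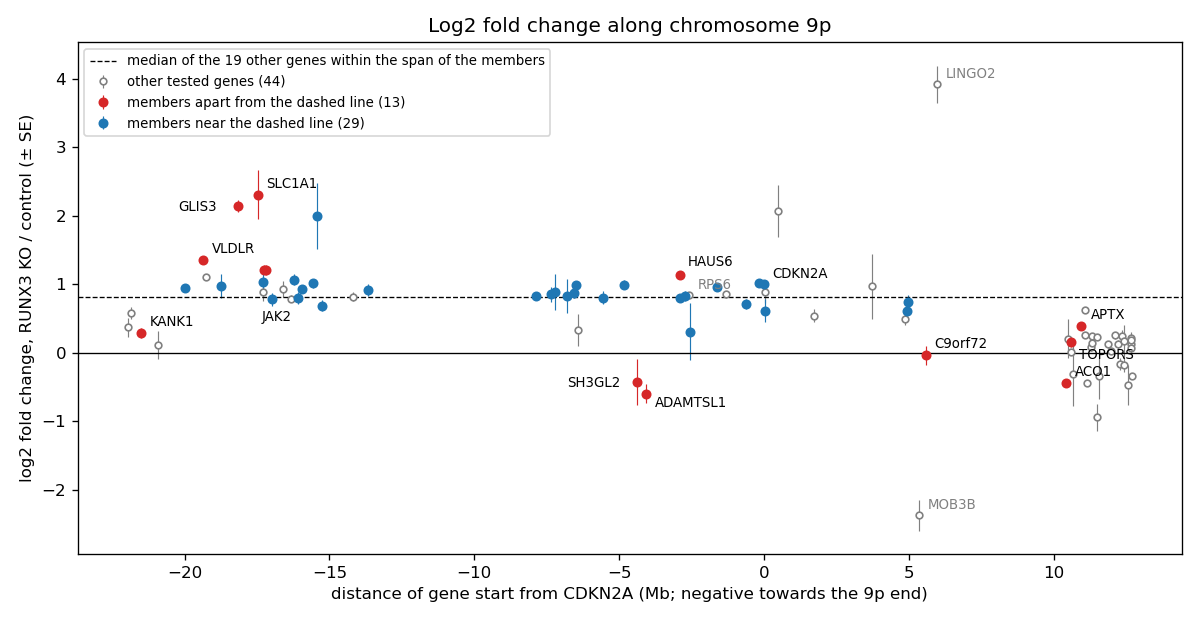
Log2 fold change (RUNX3 KO over control, vertical axis, bars are ± SE) of tested genes against the distance of their start from CDKN2A in Mb. From SMARCA2 to IFT74 most members (filled) and other genes (open) lie near the dashed line, the median of 0.82 of the 19 other genes within the span, and after IFT74 the members lie between -0.44 and 0.39; red marks the 13 members that stand apart from the line.

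In windows of 5 Mb from the end of the arm, the median over all tested genes was 0.98, 0.92, 0.85, 0.83 and 0.89 in the first 25 Mb. It was 0.61 in the window from 25 to 30 Mb, where the edge lies, and 0.12 from 30 to 35 Mb. On 9q the windows from 70 to 115 Mb had medians between 0.140 and 0.372, and those from 115 Mb onward between -0.039 and 0.101. Along each chromosome, the highest median over 41 tested genes in a row was 0.886 on chromosome 9 and 0.675 on chromosome 15, so raised stretches were found on more than 1 chromosome in these libraries.

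Whether the shift was uniform was described by its spread. Of the members between SMARCA2 and IFT74, 29 had a mean of at least 100 counts, and their log2 fold changes had a median of 0.931, an interquartile range of 0.22 and an SD of 0.404, where the median standard error of 1 gene was 0.0687. The 9 other genes with that depth in the stretch had an interquartile range of 0.0901 and an SD of 0.188. Over all 9806 genes of that depth in the genome, the interquartile range was 0.326 and the SD 0.419. Thus the middle of the members' distribution was narrower than that of all genes but wider than that of the 9 other genes, and a few members lay far out. Of the 29 members, 24 lay within 0.3 of the median of the other genes. Across the 29, which share libraries, Pearson's r between the control log2 CPM and the log2 fold change was 0.086.

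CDKN2A, at 21967751 to 21995300 on the minus strand, had 745 and 776 counts in control and 1514 and 1560 in RUNX3 KO libraries. Each RUNX3 KO library was far above both controls, and the log2 fold change was 1.00 (SE 0.0474). The table gives 1 count for the gene, so the p16INK4a and ARF transcripts were not separated. Of its exons, 593 bases are shared with the antisense gene CDKN2B-AS1, and since no source used here says whether strand was used in counting, reads there may belong to either. The antisense gene, under the symbol CDKN2B-AS, had 57 and 53 counts in control and 112 and 94 in RUNX3 KO libraries (0.89, SE 0.17), far fewer than CDKN2A.

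MTAP, at 21802635 to 21937650 on the plus strand, had 652 and 701 counts in control and 1383 and 1388 in RUNX3 KO libraries. The groups did not overlap, and the log2 fold change of 1.02 (SE 0.0501) differed from that of CDKN2A by less than the standard error of either gene. MTAP shares 684 exonic bases with a pseudogene and 460 with a noncoding gene on its own strand, and 257 with 1 on the other strand. None of these genes is in the counts under its current name, so some of their reads may be counted as MTAP. CDKN2B, which encodes the related inhibitor p15INK4b, had 82 and 55 counts in control and 113 and 99 in RUNX3 KO libraries. Its groups did not overlap, but the second control library stood at -0.58 on the log2 scale relative to the first, and the log2 fold change was 0.62 (SE 0.164). KLHL9, an adaptor of a cullin 3 ubiquitin ligase, stood at 0.71 (SE 0.0712). All 4 genes of this locus were called higher, where 24.5% of all genes were. The members were selected for being higher, so nothing is read from this count.

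JAK2, at 4984390 to 5129948 on the plus strand, had 177 and 175 counts in control and 307 and 303 in RUNX3 KO libraries. The replicates nearly coincided and the groups did not overlap, with a log2 fold change of 0.78 (SE 0.0978). JAK2 lay 0.0761 below the median of the other genes between SMARCA2 and IFT74, which is less than its standard error.

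The checkpoint ligand genes next to JAK2 were close to silent. CD274, which encodes PD-L1, had 3 and 2 counts in control and 4 and 5 in RUNX3 KO libraries. The groups did not touch, but the ratio of the summed counts scaled to library size, 1.78, had an exact 95% interval from 0.537 to 6.77 that covers counting error only. This interval holds both no change and the 1.88-fold median of the stretch, so whether CD274 followed the shift was not detectable at this depth. PDCD1LG2, which encodes PD-L2, had 0 counts in every library, which allows up to 3 counts per library or 0.249 to 0.254 CPM. The remaining genes with too few counts for a fit were DOCK8, with 1 count in all, MPDZ, a scaffold protein of cell junctions, with 2 and 0 against 5 and 1 counts, and TEK, the angiopoietin receptor, with 3 and 2 against 2 and 1.

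Expressed per length, as CPM per kb of annotated exon (RPKM), the 42 genes ranged widely in level. Genes near the shift were found at high and low levels, such as TTC39B at 0.173 RPKM in control, but not every gene followed it. ACO1 at 10.6 RPKM and ADAMTSL1 at 0.988 RPKM were called lower, and SH3GL2 at 0.629 RPKM and ACER2 at 0.305 RPKM were not called. The lowest of the 42, GLDC at 0.0381 RPKM and SLC1A1 at 0.149 RPKM, passed the minimum count only through RUNX3 KO. RRAGA, a GTPase of amino acid sensing by mTORC1, had the highest control level at 23.8 RPKM, followed by PSIP1, a chromatin reader, at 19.9 RPKM and CDKN2A at 16.6 RPKM. RRAGA, with 440 and 461 counts in control and 805 and 779 in RUNX3 KO libraries, had a log2 fold change of 0.80 (SE 0.0628). PSIP1, with 1568 and 1603 against 3100 and 3257 counts, had 0.99 (SE 0.0354). JAK2 stood much lower, at 1.88 RPKM in control and 3.24 RPKM in RUNX3 KO. Exon lengths were taken over every annotated transcript of a gene, so these levels are low estimates for genes with many isoforms.

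Members apart from the shift were counted as those more than 3 of their own standard errors and more than 0.3 on the log2 scale from 0.82, the median of the 19 other genes within the whole span. There were 13, of which 6 lay above and 7 below. Of the 6, SLC1A1 passed the minimum count of 10 only through RUNX3 KO and had to be higher to be fitted. The same holds for LINGO2, DMRTA1 and TUSC1 (7 and 5 against 11 and 13 counts) among the 19 other genes. With the 40 nearest tested genes as the reference there were 11, since the edges of the stretch then count as local level, with C9orf72, TOPORS and APTX no longer apart and IFT74 added. With the other genes from SMARCA2 to IFT74 as the reference there were 12, without HAUS6. JAK2, CDKN2A, MTAP and CDKN2B were apart under none of these references. With a looser limit of 2 standard errors and 0.2 there were 18, and the 5 added were CDC37L1, ERMP1, GLDC, PLAA and MTAP, whose 1.02 lies just past that limit, while JAK2, CDKN2A and CDKN2B remained within it. Of the genes nearest the limit of 0.3, HAUS6 at 1.14 lay just past it and was counted as apart, and ERMP1, an endoplasmic reticulum metallopeptidase, at 1.07 lay within it.

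The 6 above the shift lie within the stretch. GLIS3, a Krüppel-like zinc finger transcription factor, had 171 and 140 counts in control and 687 and 696 in RUNX3 KO libraries. Its groups lay far apart, with a log2 fold change of 2.14 (SE 0.0845), a 4.4-fold ratio. SLC1A1, a neuronal and epithelial glutamate transporter, had 5 and 9 counts in control and 40 and 31 in RUNX3 KO libraries. It passed the minimum count of 10 through the RUNX3 KO libraries alone, so it had to be higher to be fitted at all, and its log2 fold change was 2.31 (SE 0.358). VLDLR, a lipoprotein and reelin receptor, had 390 and 377 against 941 and 1041 counts, a log2 fold change of 1.36 (SE 0.0623), and shares 1100 and 260 exonic bases with noncoding genes on the other strand.

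AK3, a mitochondrial adenylate kinase, had 394 and 375 counts in control and 886 and 912 in RUNX3 KO libraries. RCL1, a ribosome biogenesis factor, had 332 and 309 against 725 and 773. These neighbors of JAK2 both had a log2 fold change of 1.21, with SE of 0.0629 and 0.0692, and in both the groups did not overlap. HAUS6, a subunit of the augmin complex of the spindle, had 708 and 712 against 1577 and 1587 counts, a log2 fold change of 1.14 (SE 0.0477). GLDC, the glycine decarboxylase, reached 2.0 with only 4 and 4 against 18 and 15 counts. It also passed the minimum count through the RUNX3 KO libraries alone, and with an SE of 0.482 it was not counted as apart.

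Among the 7 below, 5 lie outside the stretch and 2 inside it. ADAMTSL1, a secreted matrix glycoprotein related to the ADAMTS proteases, had 166 and 148 counts in control and 117 and 93 in RUNX3 KO libraries. Both RUNX3 KO libraries were lower than both controls, and the log2 fold change was -0.59 (SE 0.132), though without the second RUNX3 KO library it was -0.42 and was no longer called lower. SH3GL2, which encodes endophilin A1 of synaptic vesicle endocytosis, had 21 and 19 against 13 and 17 counts, a log2 fold change of -0.43 (SE 0.338), which was -0.26 without the first and -0.62 without the second RUNX3 KO library. These genes are neighbors, between CNTLN, a centrosomal protein gene at 0.99 (SE 0.0687), and RRAGA at 0.80. ACER2, an alkaline ceramidase gene with 11 and 9 against 11 and 14 counts, had a log2 fold change of 0.31 (SE 0.415) and was too imprecise to be placed.

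Of the 5 outside the stretch, KANK1, a regulator of actin and focal adhesions, had 449 and 433 counts in control and 523 and 567 in RUNX3 KO libraries, a log2 fold change of 0.29 (SE 0.0691). Its groups did not overlap. C9orf72, known for the repeat expansion of familial ALS, had 127 and 104 against 110 and 118 counts, and its groups overlapped (-0.03, SE 0.138). ACO1, the cytosolic aconitase and iron regulatory protein, had 943 and 941 counts in control and 737 and 665 in RUNX3 KO libraries. It was lower in both RUNX3 KO libraries, with a log2 fold change of -0.44 (SE 0.055).

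TOPORS, a RING finger ubiquitin and SUMO ligase, had 513 and 573 counts in control and 612 and 609 in RUNX3 KO libraries. Its log2 fold change of 0.16 (SE 0.0647) passed the threshold with all 4 libraries and missed it without either RUNX3 KO library, at 0.14 and 0.17, or without the first control library, at 0.08. APTX, the DNA repair enzyme aprataxin, had 906 and 975 against 1146 and 1350 counts (0.39, SE 0.0506), and its exons share 1227, 338 and 212 bases with 3 processed pseudogenes. Exons of other genes also overlap those of GLIS3 (194 bases, on the other strand), C9orf72 (574, on the other strand) and TOPORS (348 on its own and 153 on the other strand). Without the second RUNX3 KO library, APTX at 0.29 and KANK1 at 0.25 were not called higher.

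By role, 12 of 12 chromatin and transcription genes were called higher, from TOPORS at 0.16 to GLIS3 at 2.14, with a median of 0.911. The background of 24.5% called higher over all genes applies to each role, and nothing is read from these counts, since the members were selected for being higher. The call of TOPORS was lost under 6 alternatives. SMARCA2, an ATPase of the SWI/SNF remodeling complex, had 659 and 578 counts in control and 1188 and 1229 in RUNX3 KO libraries (0.95, SE 0.0536). MLLT3, a reader of acylated histones in the super elongation complex, had 528 and 527 against 1018 and 1047 (0.96, SE 0.0561). KDM4C, a histone H3 lysine demethylase, stood lower at 0.69 (SE 0.0781), and NFIB, a nuclear factor I protein, at 0.82 (SE 0.0569). UHRF2, a reader of modified DNA and histones, stood at 1.02 (SE 0.064), RFX3, a regulator of cilium genes, at 0.98 (SE 0.175) and BNC2, a zinc finger protein, at 0.81 (SE 0.0909). SNAPC3, a subunit of the small nuclear RNA activating complex, stood at 0.87 (SE 0.0671), though its exons share 71 bases with PSIP1 on the other strand, and KIAA2026 at 0.80 (SE 0.0883).

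Of the 10 enzymes and transport genes, 8 were called higher, with a median of 1.00 and with GLDC no longer called by the DESeq2 test. RANBP6, an importin family member, had 573 and 567 counts in control and 1054 and 1140 in RUNX3 KO libraries (0.93, SE 0.0548). ERMP1 shares 286 exonic bases with RIC1 on the other strand. ZDHHC21, a palmitoyltransferase, stood at 0.85 (SE 0.106) and TTC39B, linked to lipoprotein metabolism, at 0.83 (SE 0.248). Of 4 tested receptor, adhesion and matrix genes, 3 were called higher. PTPRD, a receptor tyrosine phosphatase, had 224 and 221 against 434 and 412 counts (0.91, SE 0.0859), and FREM1, a basement membrane protein, stood at 0.89 (SE 0.258).

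In the group of cytoskeleton, trafficking and repair, 9 of 11 tested genes were called higher, with a median of 0.738. KANK1 and APTX are among the 9 and lost their calls without the second RUNX3 KO library. DENND4C, a Rab exchange factor, had 375 and 377 counts in control and 700 and 650 in RUNX3 KO libraries (0.83, SE 0.0687), and CDC37L1, a co-chaperone of HSP90, stood at 1.04 (SE 0.107). Close to the edge on the side of the centromere, several values lay below the median of the stretch. Members farther inside also did, such as CDKN2B at 0.62 and KDM4C at 0.69. PLAA, a factor of ubiquitin-dependent degradation, had 875 and 885 against 1355 and 1351 counts (0.61, SE 0.0471). IFT74, of the intraflagellar transport complex, had 163 and 153 against 275 and 257 (0.74, SE 0.104), and the exons of these neighbors share 108 bases on opposite strands. CAAP1, a nearby gene that is not a member and is listed as C9orf82, stood at 0.49 (SE 0.0897). TUSC1, another such gene with few counts, stood at 0.97 (SE 0.472) and was not called.

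Promoters were searched for TGTGGT, the core sequence bound by RUNX proteins, on both strands, in the RefSeq window from 250 bases before to 50 bases after each gene start (GRCh38.p14). Of the 47 members, 43 had an entry, and CDC37L1, PDCD1LG2, KIAA2026 and RRAGA had none. The motif occurred in 5 of the 43 (11.6%), against 13.1% of all 35116 promoters, and no site in a match of this length is shown to be bound. Only the 3 matches before a gene start are shown, each in a 30-base window read on the strand of the gene. TGTGGT or its complement ACCACA is in capitals, and the position is that of an exact match in GRCh37. The match in UHRF2 begins 250 bases, in KDM4C 128 bases and in PLAA 223 bases before the RefSeq start. All 30 bases of the KDM4C window and 16 of the PLAA window lie in exons annotated in GENCODE, in which KDM4C starts farther upstream, at 6720863. NFIB and HAUS6 hold a match after the start, at bases 39 and 23 of the transcript, which are not shown. Of these 5 genes only HAUS6 was counted as apart.
UHRF2 (chr9:6412949-6412978, plus strand): TGTGGTagccgcgcaatcttccgaaaccca
KDM4C (chr9:6757833-6757862, plus strand): aagcctaagttaACCACAgcgcggaagttg
PLAA (chr9:26947446-26947475, minus strand): gcttcccgatttACCACAaactgttgggcc

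The last 150 bases before the RefSeq start are shown for a pair of genes within 0.3 of the shift, JAK2 and MTAP, for GLIS3, which lay above it, and for SH3GL2, which lay below it. They are read on the strand of the gene, with the position of an exact match in GRCh37, and none of these bases lies in an annotated exon. Capitals mark GGGCGG or its complement CCGCCC, the GC box, which occurs in 29 of the 43 member promoters (67.4%) and in 45.0% of all promoters. The median GC content was 66.7% in members and 58.7% in all. MTAP and SH3GL2 hold the box in this stretch, and JAK2 and GLIS3 do not. TGTGGT is absent from the window of all 4.
JAK2 (chr9:4984240-4984389, plus strand): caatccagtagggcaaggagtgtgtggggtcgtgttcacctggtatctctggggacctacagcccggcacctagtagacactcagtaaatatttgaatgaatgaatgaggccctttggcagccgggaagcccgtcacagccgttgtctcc
MTAP (chr9:21802485-21802634, plus strand): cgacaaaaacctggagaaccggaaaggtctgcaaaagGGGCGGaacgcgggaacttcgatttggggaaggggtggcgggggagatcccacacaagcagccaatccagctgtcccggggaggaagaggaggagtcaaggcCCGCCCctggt
GLIS3 (chr9:4298497-4298646, minus strand): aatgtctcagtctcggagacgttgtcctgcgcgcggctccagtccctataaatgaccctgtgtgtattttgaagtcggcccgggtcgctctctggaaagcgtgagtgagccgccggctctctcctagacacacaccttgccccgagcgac
SH3GL2 (chr9:17578914-17579063, plus strand): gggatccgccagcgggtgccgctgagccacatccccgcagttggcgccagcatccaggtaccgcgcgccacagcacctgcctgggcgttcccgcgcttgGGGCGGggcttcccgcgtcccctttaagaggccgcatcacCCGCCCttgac

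Genes elsewhere in the genome whose products work with those of JAK2, CDKN2A and MTAP did not share 1 direction. Of 14 tested JAK-STAT genes, 6 were called higher and 3 lower, where 24.5% and 24.4% of all genes were, and the median was 0.05 on the log2 scale. SOCS2, a feedback inhibitor of cytokine signaling, had 51 and 25 counts in control and 86 and 124 in RUNX3 KO libraries (1.45, SE 0.199, edgeR adjusted p = 1.19e-09). Its groups did not overlap although the replicates differed. PIAS1, a SUMO ligase, had 314 and 320 against 479 and 466 counts (0.56, SE 0.0769, edgeR adjusted p = 1.12e-09), but it lies on chromosome 15, whose median was 0.285. The 3 called lower lay between -0.43 and -0.22. The lowest was TYK2, a kinase of the JAK family, named after its value was seen, with 2076 and 2156 against 1573 and 1587 counts (-0.43, SE 0.0381, edgeR adjusted p = 1.43e-17).

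Of 15 tested genes of the cyclin D and RB pathway, on which p16INK4a acts, 3 were called higher, 3 lower and 9 were not called, and over all genes 24.5% were called higher and 24.4% lower. CCND3, cyclin D3, had 482 and 502 counts in control and 760 and 684 in RUNX3 KO libraries (0.54, SE 0.0643, edgeR adjusted p = 9.55e-12). MDM2, the ubiquitin ligase of p53 that ARF inhibits, stood at -0.25 (SE 0.0681, edgeR adjusted p = 0.00129), and CDKN2C, the p18INK4c inhibitor gene, at -0.22 (SE 0.0498, edgeR adjusted p = 8.96e-05). The groups of CCND3 did not overlap.

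Of 14 tested genes of methionine salvage and of the PRMT5 complex, which is known to be partly inhibited in cells that lack MTAP, 8 were called higher and 2 lower, where 24.5% and 24.4% of all genes were. Their changes were small, with a median of 0.107. APIP, an enzyme of the salvage pathway downstream of MTAP, had 277 and 294 counts in control and 219 and 220 in RUNX3 KO libraries (-0.39, SE 0.0945, edgeR adjusted p = 0.000283). ODC1, ornithine decarboxylase, rose from 8097 and 8267 to 10336 and 10399 counts (0.33, SE 0.0236, edgeR adjusted p = 3.16e-22), and ENOPH1 stood at 0.21 (SE 0.0488, edgeR adjusted p = 0.000145). Apart from SOCS2, each partner gene named here changed by less than the median of 0.91 of the 9p stretch.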

How the data were processed

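The authors deposited, for each of 4 RNA-seq libraries (2 control, 2 RUNX3 KO), 1 table of gene symbols with unnormalized read counts. Per the labels' processing notes the tools were bcl2fastq, HISAT2 2.1.0 and HTSeq on hg19, whereas the paper's methods name STAR and featureCounts; the sources also differ on culture medium, RNA extraction and library preparation, and the strand setting is not given in the sources used here. Each table closes with 5 rows without a gene, 25.87 to 28.05% of all counts, which were left out.

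The comparison used edgeR 4.0.16 under R 4.3.3: filterByExpr at its defaults (minimum count 10, minimum total 15), TMM scaling, glmQLFit and glmQLFTest without a block, and Benjamini-Hochberg adjustment over 12967 genes. Standard errors are the log2 fold change divided by the root of its F statistic. With common dispersion at 0.000211 (a coefficient of variation of 1.45%), replicates differed little more than by counting error (chi-square per degree of freedom 1.22 and 1.18, against 17.1 and 17.3 between groups). Positions came from GENCODE on GRCh37 by symbol (19490) or synonym (2156), leaving out symbols with several genes. RPKM is CPM per kb of the union of annotated exons.

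The members and gene lists were chosen with earlier results of these data known. Libraries were given for JAK2, CD274, CDKN2A and MTAP, for the 6 largest and 4 smallest log2 fold changes, and for every member apart, and of each partner list up to 3 called genes with the largest change (1 of these is not reported here); genes named beside these, the GC box, the printed promoters and the edges at SMARCA2 and IFT74 were chosen after values were seen. Alternatives used DESeq2 1.42.0, limma 3.58.1, other scalings, filters and references, a replicate block and each library left out.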

Additional observations from a re-analysis of the deposited data

How the results depend on the processing

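Members called higher numbered 30 to 37 under all alternatives, against 37, lowest without the second RUNX3 KO library, and 32 with the DESeq2 test. Leaving out each library in turn gave 30 to 36 called higher, 1 to 2 called lower, member medians of 0.8463 to 0.9085, medians of the other genes within the span of 0.7627 to 0.8265, and 9q medians of 0.09725 to 0.1118. The member median was 0.9133 from SMARCA2 to IFT74, and the 9q median was 0.07954 with library size alone. With a replicate block, 37 were called higher and 2 lower, with a median of 0.8614. The replicate numbers do not pair the samples by their labels, and replicate differences of control and RUNX3 KO correlated at -0.00366 over 10869 genes. Members apart numbered 11 to 18, highest with 2 standard errors and 0.2. Of 219 values for 17 single members under the alternatives, 207 kept direction and side of the threshold, 10 kept direction but missed it, and 2 changed sign, both of C9orf72, which stood at -0.03 with all libraries, at 0.1191 without the first control library, at 0.006879 without the first RUNX3 KO library and at -0.1707 without the second control library. The 10 were TOPORS under 6 alternatives, GLDC with the DESeq2 test, and ADAMTSL1, KANK1 and APTX without the second RUNX3 KO library. The cause was not tested. With 2 libraries a group, genes with few counts were imprecise, and the tests cover the spread between these libraries only.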
